A study of Mus musculus with 68 samples.

Results

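Lung RNA was compared between mice killed 6 h and mice killed 2 h after an injection of vehicle. The comparison rests on 6 of the 68 libraries of the series, 3 at 6 h and 3 at 2 h, taken by the organ, treatment and time in their labels. The study profiled heart, lung, kidney and liver by sequencing of polyadenylated RNA to learn how organs respond to Egf, a growth factor, and the vehicle mice were its controls. All mice were wild-type C57BL/6J females aged 10 weeks. The vehicle was 50 to 60 µL of phosphate-buffered saline, given into the retro-orbital sinus during isoflurane anaesthesia, so both groups had been anaesthetised and injected. Lung libraries taken 6 h (4) and 2 h (4) after 1 mg/kg Egf, and from 3 untreated mice, are shown beside them, and the other 3 organs had vehicle groups of the same size. The labels give neither the hour of injection nor the hour of death, so time since the injection, time since the anaesthesia and hour of the day cannot be told apart.

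Mammalian cells keep time with a loop in which the proteins Clock and Arntl bind E-box sequences and switch on genes of their own repressors, the Per and Cry proteins and Ciart. Nr1d and Ror receptors act on the ROR element of Arntl, and the loop drives output factors such as Dbp, Tef and Hlf. Stress raises corticosteroids, which act through the glucocorticoid receptor on genes such as Fkbp5, and lung is a classical target of both systems.

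The 6 h libraries held 16436692 to 18987569 counted reads and the 2 h libraries 17804061 to 21430960. All 17 lung libraries carried lung markers: the 10 genes of alveolar type II cells summed to 38473.1 to 44362.5 CPM (counts scaled to a common library size) at 6 h and 43120.8 to 47454.3 CPM at 2 h. Mitochondrial transcripts took 1.24 to 1.80% of reads at 6 h and 1.81 to 2.08% at 2 h, without overlap, and their part in the results was not tested. Vehicle 6 h replicates 2 and 3 and vehicle 2 h replicate 3 stood apart by over 500 CPM of hepatocyte markers, and without these 3 libraries 0 genes passed (742 at an unadjusted p under 0.05, edgeR). Levels below are CPM scaled by TMM, which corrects for the makeup of each library, and changes are log2 of 6 h over 2 h with the standard error (SE). The test was edgeR's quasi-likelihood test over all 17 lung libraries, and p-values were adjusted across the whole table by Benjamini-Hochberg. The labels number the replicates without saying that each is a separate mouse, so p-values measure the spread between these libraries, part of which may be technical.

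At 6 h the lung had more RNA of the clock repressors Ciart and Cry1 and of the clock output factors Tef and Hlf, and less of the clock activators Arntl and Clock, than at 2 h. It also had less RNA of Fkbp5, Map3k6 and Cdkn1a, which glucocorticoids induce. Of 16778 genes tested, 74 (0.441%) passed at an adjusted p under 0.05, 32 higher (0.191%) and 42 lower (0.25%) at 6 h. The 3 libraries of one time lay wholly above those of the other for all 74, but also for 2403 of all genes tested (14.3%), with 6 h above for 7.8% and below for 6.53%. The median change of all genes tested was 0.01. In whole tissue, fewer cells of a type and less RNA per cell cannot be told apart.

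The count of 74 depended on the libraries in the fit. It was 17 to 45 without each of the 6 vehicle libraries in turn, each of which moved it by over 1.5 times, and 10 when the 6 vehicle libraries alone were fitted. It was 298 with DESeq2 (127 higher, 171 lower) and 1409 with limma voom (778 higher, 631 lower), which shared 73 and 74 of the 74 calls. The 44 called genes named by rule all kept their direction in every fit run, and 10 of them passed without each library: Arntl, Clock, Fkbp5, Map3k6, Cdkn1a, Lrtm2, Limk1, Hecw2, Tbc1d8 and Fam124b. Of the rest, 12 lost the call whichever library was left out and 22 lost it in some cases. When the 6 vehicle libraries alone were fitted, Clock, Limk1, Hecw2, Tbc1d8 and Fam124b lost their calls, as did Ciart, Cry1 and Hlf. Arntl passed there, but not when the 9 vehicle and untreated libraries were fitted.

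Promoter sequences show where the clock's own motif lies in the genes that moved. RefSeq promoters of 300 bases around a transcription start, on build GRCm38.p6, were matched by symbol for 60 of the 74 genes, which have 87 promoters. The letters CACGTG, an E-box that reads the same on both strands, occurred in 5 of 30 promoters of genes that rose (16.7%), in 8 of 57 promoters of genes that fell (14.0%) and in 7.15% of all 32851 promoters. The 4 rising genes with it were Ciart, Tef, Tspan4 and Cry1. The 7 falling genes with it were Mafk, Picalm, Bcar3, Ampd3, Dgkh, St6galnac3 and Fkbp5. Ciart held 3 copies, and both promoters of Tef held 1. These promoters are printed 5′ to 3′ on the gene's strand, with the E-box in capitals, for Ciart (chr3:95882179-95882478, minus strand), the upstream promoter of Tef (chr15:81802423-81802722, plus strand), the second promoter of Tspan4 (chr7:141476130-141476429, plus strand) and Cry1 (chr10:85185005-85185304, minus strand).
Ciart: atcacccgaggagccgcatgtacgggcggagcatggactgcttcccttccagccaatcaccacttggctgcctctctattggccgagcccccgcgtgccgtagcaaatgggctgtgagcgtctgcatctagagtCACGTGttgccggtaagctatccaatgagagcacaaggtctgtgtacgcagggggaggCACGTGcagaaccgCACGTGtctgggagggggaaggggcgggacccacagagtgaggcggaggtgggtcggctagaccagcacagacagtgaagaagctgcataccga
Tef: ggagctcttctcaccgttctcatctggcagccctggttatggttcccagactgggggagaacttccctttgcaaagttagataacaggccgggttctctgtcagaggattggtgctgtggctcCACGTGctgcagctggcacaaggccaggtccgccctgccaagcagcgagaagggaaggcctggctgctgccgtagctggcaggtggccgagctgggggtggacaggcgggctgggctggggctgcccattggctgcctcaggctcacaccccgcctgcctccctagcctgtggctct
Tspan4: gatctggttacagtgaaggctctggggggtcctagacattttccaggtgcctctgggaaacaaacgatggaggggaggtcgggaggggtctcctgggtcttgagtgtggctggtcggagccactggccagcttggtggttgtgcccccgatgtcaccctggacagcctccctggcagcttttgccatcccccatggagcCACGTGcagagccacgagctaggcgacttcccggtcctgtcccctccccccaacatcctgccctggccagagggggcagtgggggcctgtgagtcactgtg
Cry1: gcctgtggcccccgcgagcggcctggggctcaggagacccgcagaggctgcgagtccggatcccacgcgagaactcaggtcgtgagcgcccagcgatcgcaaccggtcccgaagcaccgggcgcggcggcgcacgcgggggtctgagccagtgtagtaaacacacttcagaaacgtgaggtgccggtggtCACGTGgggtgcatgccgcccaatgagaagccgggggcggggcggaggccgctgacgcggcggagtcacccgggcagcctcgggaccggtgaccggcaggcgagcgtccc

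Among the genes that fell, Arntl and Map3k6 each held a motif of another kind, shown in capitals below. The ROR element (ANNT followed directly by AGGTCA), searched on both strands, occurred in 1 of the 87 promoters, the second of Arntl (chr7:113207261-113207560, plus strand), and in 0.7% of all promoters. The glucocorticoid element (GNACA and TGTNC with NNN between them), searched on both strands, occurred in 1 of the 87, that of Map3k6 (chr4:133240568-133240867, plus strand), and in 0.475% of all promoters. No E-box letters occur in either of these windows. The promoter of Fkbp5 held 1 E-box and no glucocorticoid element within its window. The D-box (TTATGNAA, both strands) occurred in 2 promoters of genes that rose (6.67%), of Cyp2a5 and Paqr7, and in 3.38% of all promoters. The cyclic AMP element (TGACGTCA) occurred in 1 promoter of a gene that rose (3.33%), Hlf, and in 1.79% of all promoters. Neither occurred in promoters of genes that fell. A match is a description of letters.
Arntl: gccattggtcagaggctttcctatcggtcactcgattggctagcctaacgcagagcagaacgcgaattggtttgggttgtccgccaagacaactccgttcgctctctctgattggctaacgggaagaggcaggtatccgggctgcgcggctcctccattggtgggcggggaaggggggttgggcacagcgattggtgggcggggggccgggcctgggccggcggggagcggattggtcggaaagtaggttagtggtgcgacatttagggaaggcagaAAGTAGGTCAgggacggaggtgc
Map3k6: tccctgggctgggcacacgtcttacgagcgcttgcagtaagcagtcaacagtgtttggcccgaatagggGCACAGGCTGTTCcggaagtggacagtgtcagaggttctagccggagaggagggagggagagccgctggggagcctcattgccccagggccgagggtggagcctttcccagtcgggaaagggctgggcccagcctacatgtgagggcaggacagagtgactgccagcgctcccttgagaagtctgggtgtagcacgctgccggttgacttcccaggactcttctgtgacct

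The clock activators Arntl and Clock were lower at 6 h. Arntl, the partner of Clock (ENSMUSG00000055116, mm39 chromosome 7, 112806672 to 112913333), had 1.71, 1.96 and 2.81 CPM at 6 h, against 14.3, 10.7 and 15.2 CPM at 2 h. All 6 h libraries lay below all 2 h libraries, whose lowest value was several times the highest at 6 h. Arntl fell by 2.63 ± 0.37 (SE) with an adjusted p = 0.00575 by edgeR. Of the untreated lungs, with 5.53, 15.9 and 16.6 CPM, 1 lay between the times and the others above the 2 h range. Clock itself had 55.6, 56.9 and 48.9 CPM at 6 h and 88.0, 79.9 and 91.6 CPM at 2 h. The groups did not overlap, the untreated values of 72.5 to 78.0 CPM lay between them, and Clock fell by 0.69 ± 0.09 (adjusted p = 0.00431, edgeR). Npas2, a paralogue of Clock, did not pass (-1.02 ± 0.47, adjusted p = 0.497, edgeR).

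Of the repressors of the loop, Ciart and Cry1 rose. Ciart, which binds the Clock and Arntl pair and silences it (ENSMUSG00000038550, mm39 chromosome 3, 95785815 to 95789563), had 7.95, 5.19 and 7.16 CPM at 6 h and 1.36, 2.16 and 0.919 CPM at 2 h. Every 6 h library was above every 2 h library, and the change was 2.19 ± 0.38 (adjusted p = 0.0189, edgeR). Cry1 had 30.9, 28.7 and 28.6 CPM at 6 h, against 12.6, 14.1 and 17.3 CPM at 2 h and 10.3 to 13.8 CPM in untreated lungs. The 6 h lungs stood above both other groups, and Cry1 rose by 1.00 ± 0.16 (adjusted p = 0.0119, edgeR). Per3 had 22.2, 17.7 and 29.0 CPM at 6 h and 8.91, 8.68 and 4.25 CPM at 2 h without overlap, yet did not pass (1.66 ± 0.41, adjusted p = 0.0959). Per1, at 1.10 ± 0.36, and Per2, at 1.02 ± 0.33, did not pass either by edgeR, both with an adjusted p = 0.262.

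Nr1d1, a receptor that represses Arntl, had 145, 116 and 155 CPM at 6 h and 257, 232 and 159 CPM at 2 h. The groups did not overlap but came within a few CPM of each other, and the change of -0.64 ± 0.25 did not pass (adjusted p = 0.388, edgeR). Its paralogue Nr1d2 had a change of 0.59 ± 0.19 (adjusted p = 0.24). Of 18 core clock genes tested, 2 thus rose and 2 fell by edgeR, 4 rose and 2 fell by DESeq2, and 6 rose and 3 fell by voom. An unadjusted p under 0.05 was reached by 12 of them, beside 9.57% of all genes tested (1605 of 16778, edgeR), and the median change was 0.15 against 0.01 over all genes. Ciart lost its call without vehicle 6 h replicate 1 or 3 or vehicle 2 h replicate 1 or 3, with adjusted p up to 0.108. Cry1 lost it without vehicle 6 h replicate 1 or vehicle 2 h replicate 1 or 2, with adjusted p up to 0.0722.

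Of 9 output genes of the clock, 5 rose and 0 fell at 6 h by edgeR, beside 0.191% of all genes that rose. Like the other lists, this one was chosen with earlier results of these data known, so its share is no independent test. DESeq2 and voom each called 7 of them higher and 1 lower. Tef, a factor that binds D-boxes (ENSMUSG00000022389, mm39 chromosome 15, 81686622 to 81711064), had 481, 480 and 448 CPM at 6 h and 195, 228 and 185 CPM at 2 h. The groups were far apart, with a change of 1.21 ± 0.19 (adjusted p = 0.00919, edgeR), and untreated lungs with 311, 164 and 188 CPM spread around and above the 2 h level. Its paralogue Hlf had 64.2, 56.1 and 62.4 CPM at 6 h, against 25.9, 27.2 and 17.6 CPM at 2 h. Hlf did not overlap between the times and rose by 1.37 ± 0.25 (adjusted p = 0.0255, edgeR). The third factor of this family, Dbp, had 176, 178 and 182 CPM at 6 h and 59.5, 57.5 and 36.2 CPM at 2 h. Its libraries did not overlap and its change of 1.81 ± 0.42 was larger than those of Tef and Hlf, but it did not pass (adjusted p = 0.0823).

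Tspan4, a tetraspanin of the cell surface and the gene of this list with the smallest p, had 139, 146 and 127 CPM at 6 h and 56.6, 63.3 and 67.2 CPM at 2 h. No 6 h library came near a 2 h library, untreated lungs had 51.1 to 83.5 CPM, and the change was 1.14 ± 0.17 (adjusted p = 0.00772, edgeR). Chid1 overlaps Tspan4 on the opposite strand, and in libraries without strand their shared reads cannot be told apart. Wee1, a kinase that holds back Cdk1 at the entry to mitosis and not chosen by the naming rule, had 40.2, 40.5 and 45.7 CPM at 6 h and 21.2, 24.1 and 25.7 CPM at 2 h. Its change was 0.83 ± 0.17 (adjusted p = 0.0446, edgeR). Ypel3, a small zinc-binding protein that slows growth, rose by 0.64 ± 0.11 (adjusted p = 0.0222, edgeR) and averaged 86.4 ± 4.8 CPM at 6 h and 55.3 ± 5.59 CPM at 2 h (SD, n = 3 each).

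The 4 output genes left over, Dbp, Usp2, Nfil3 and Coq10b, did not pass by edgeR. All but Coq10b, 3 genes, had an unadjusted p under 0.05. Of the 9 estimates 7 were positive and 2, of Nfil3 and Coq10b, were negative. Dbp is described above, and the deubiquitinase Usp2 had a change of 1.26 ± 0.31 (adjusted p = 0.0888). Nfil3, which competes with Dbp, Tef and Hlf for D-boxes and represses from them, had 3.77 ± 0.96 CPM at 6 h and 7.54 ± 0.72 CPM at 2 h (SD, n = 3 each), a change of -1.0 ± 0.26 (adjusted p = 0.108). The median over the 9 outputs was 1.14, against 0.01 over all genes. Among the calls, Hlf lost its own without any one of the 6 libraries (adjusted p up to 0.124), Ypel3 in 5 of the 6 cases (up to 0.1), Tef without vehicle 2 h replicate 1 or 3 (up to 0.0693) and Tspan4 without vehicle 2 h replicate 1 (0.061). Wee1 was not refitted in this way.

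**Figure D1:**
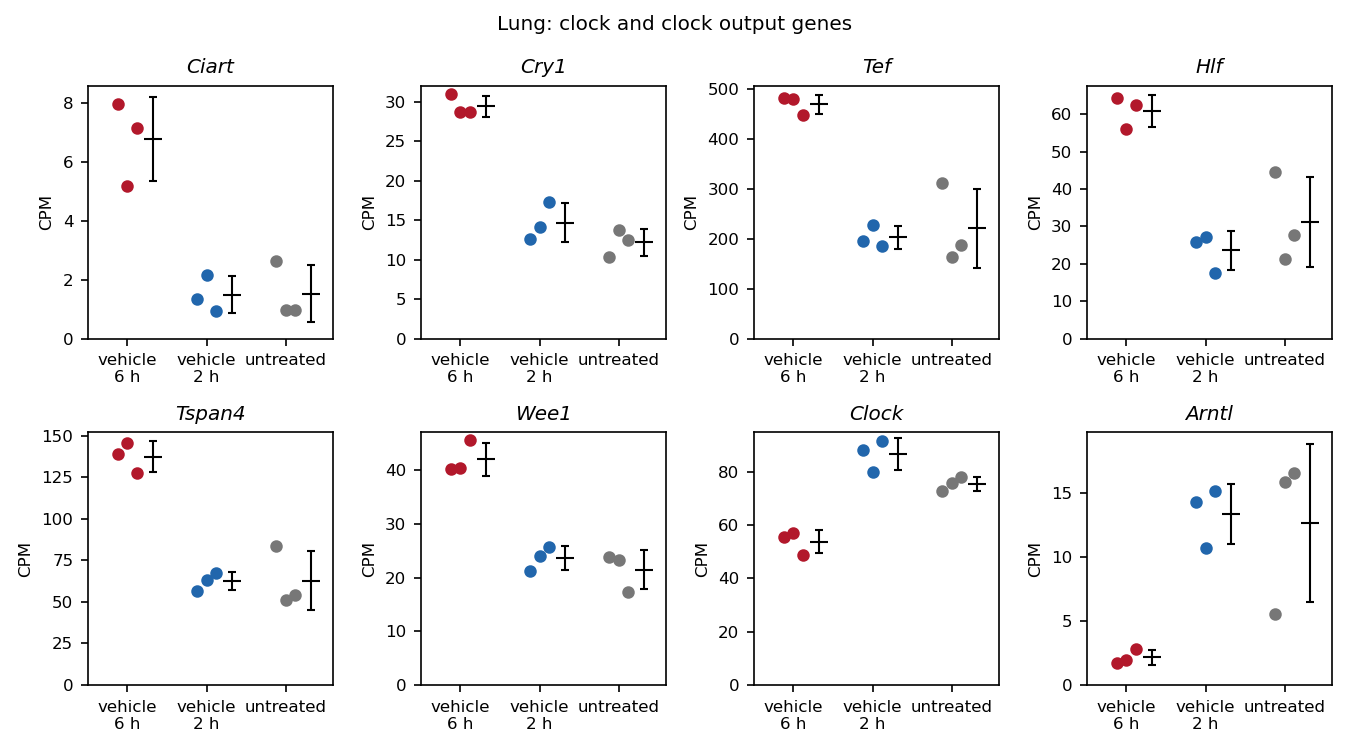
Levels of 8 clock and clock output genes in single lung libraries, in TMM-scaled CPM on the vertical axis of each panel; dots are libraries of vehicle 6 h, vehicle 2 h and untreated mice, and the bar with its line is the mean ± SD of 3. Ciart, Cry1, Tef, Hlf, Tspan4 and Wee1 lie higher at 6 h than at 2 h and Clock and Arntl lie lower, with no 6 h library inside the 2 h range.

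Of 26 genes that glucocorticoids are known to induce, 3 fell and 0 rose by edgeR at 6 h relative to 2 h, beside 0.25% of all genes that fell. This list too was chosen with earlier results of these data known. Fkbp5, a cochaperone that lowers the affinity of the glucocorticoid receptor for its hormone (ENSMUSG00000024222, mm39 chromosome 17, 28618068 to 28736501), had 36.0, 32.3 and 26.6 CPM at 6 h, against 123, 140 and 104 CPM at 2 h. The 2 h lungs stood far above the 6 h lungs and also above the untreated ones, at 17, 25 and 23.7 CPM. Fkbp5 fell by 1.95 ± 0.20 (adjusted p = 0.000348, edgeR). Map3k6, a kinase at the head of stress-activated MAP kinase cascades (mm39 chromosome 4, 132968129 to 132980240), had 34.6, 30.6 and 27.9 CPM at 6 h, 116, 105 and 88.0 CPM at 2 h and 18.0, 26.4 and 25.8 CPM without treatment. It showed the same order as Fkbp5 and fell by 1.73 ± 0.19 (adjusted p = 0.00065, edgeR).

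Cdkn1a, the p21 inhibitor of cyclin-dependent kinases (ENSMUSG00000023067, mm39 chromosome 17, 29309950 to 29319701), had 43.3, 47.4 and 44.3 CPM at 6 h and 182, 186 and 268 CPM at 2 h. Its groups did not overlap and it fell by 2.24 ± 0.31 (adjusted p = 0.00575, edgeR). Cdkn1a also stands in the list of 17 p53 targets, where no other member passed by edgeR. DESeq2 called 1 of the 17 lower, and voom called 1 higher and 4 lower. Zbtb16, a zinc finger factor, had 14.5, 16.1 and 13.8 CPM at 6 h and 101, 77.6 and 48.5 CPM at 2 h, yet did not pass (-2.36 ± 0.48, adjusted p = 0.0547). Fam107a, an actin-associated protein, came as close, at -1.20 ± 0.26 (adjusted p = 0.059).

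No other member of the glucocorticoid list passed by edgeR. Tsc22d3, which encodes the glucocorticoid-induced leucine zipper, had 240, 201 and 193 CPM at 6 h and 206, 242 and 310 CPM at 2 h. The libraries overlapped and the change was -0.26 ± 0.28 (adjusted p = 0.87). Klf9 at -0.08 ± 0.16 and Dusp1 at 0.02 ± 0.37 had adjusted p of 0.951 and 0.997. Of the 26, 12 had an unadjusted p under 0.05, and 4 of those, Per1, Arrdc2, Sult1a1 and Ddit4, had a positive estimate. The median over the list was -0.22, against 0.01 over all genes. DESeq2 called 6 of the list as lower and 0 as higher, and voom 7 and 2.

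Npr3, the receptor that clears natriuretic peptides (mm39 chromosome 15, 11839982 to 11907373), had 119, 68.1 and 69.6 CPM at 6 h and 333, 301 and 210 CPM at 2 h. The 6 h lungs fell into the untreated range of 85.8 to 164 CPM or below it, and the change was -1.72 ± 0.27 (adjusted p = 0.0118, edgeR). Eln, the elastin of vessel walls and alveoli, had 124, 165 and 142 CPM at 6 h and 257, 356 and 264 CPM at 2 h, with no overlap. It fell by 1.02 ± 0.18 (adjusted p = 0.0217, edgeR) and was the one member of 20 matrix genes to pass by edgeR, while Lox, which crosslinks elastin, had a change of -0.61 ± 0.15 (adjusted p = 0.0804). DESeq2 called 2 of the 20 lower, and voom called 5 lower and 1 higher. Npr3 lost its call without vehicle 6 h replicate 2 or 3 or vehicle 2 h replicate 1 (adjusted p up to 0.0789), and Eln without vehicle 6 h replicate 1 or 3 or vehicle 2 h replicate 2 (up to 0.11).

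Crem, a factor that answers to cyclic AMP, had 14.2, 15.4 and 12.6 CPM at 6 h and 25.1, 24.7 and 37.2 CPM at 2 h. It fell by 1.04 ± 0.19 (adjusted p = 0.026, edgeR) to levels inside the untreated range of 12.2 to 19.5 CPM, and it lost its call in 5 of 6 cases when a library was left out. Limk1, a kinase that inactivates the actin-severing protein cofilin, had 25.4, 25.3 and 23.6 CPM at 6 h, against 41.0, 40.5 and 42.6 CPM at 2 h. Both groups were tight, and Limk1 fell by 0.74 ± 0.10 (adjusted p = 0.00524, edgeR). Pdlim5, a scaffold that ties kinases to actin, had 96.5, 111 and 103 CPM at 6 h, against 154, 154 and 192 CPM at 2 h and 90.4 to 113 CPM without treatment. It fell by 0.69 ± 0.12 (adjusted p = 0.0163, edgeR), with the call lost without vehicle 6 h replicate 1 or 3 or vehicle 2 h replicate 3 (adjusted p up to 0.0938). Rapgef5, an exchange factor for Rap, had 232, 161 and 210 CPM at 6 h and 385, 286 and 374 CPM at 2 h and fell by 0.79 ± 0.16 (adjusted p = 0.036, edgeR). The call of Rapgef5 was lost in 5 of 6 cases when a library was left out (adjusted p up to 0.142, edgeR) and with covariates for markers of other organs.

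Chka, the choline kinase that starts phosphatidylcholine synthesis, had 38.5, 30.8 and 36.6 CPM at 6 h and 55.7, 52.0 and 54.5 CPM at 2 h. It fell by 0.62 ± 0.11 (adjusted p = 0.0251, edgeR) and was the one member of 16 surfactant genes called by edgeR, where DESeq2 called 2 lower and voom 3. It lost its edgeR call whichever library was left out (adjusted p up to 0.108). The protein gene Sftpc had a change of -0.13 ± 0.13 (adjusted p = 0.844). Heatr1, needed to make ribosomal RNA, had 27.3, 21 and 27.1 CPM at 6 h and 48.5, 46.1 and 40.4 CPM at 2 h, a fall of the same kind (-0.84 ± 0.14, adjusted p = 0.0119, edgeR). No other of 24 ribosome biogenesis genes passed by edgeR (DESeq2 called 1 lower and voom 3), although 20 had a negative estimate, with a median of -0.23.

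The other called genes that the naming rule chose among the falls are given by their ranges. Fam124b had 1.07 to 1.59 CPM at 6 h and 4.99 to 6.2 CPM at 2 h and fell by 2.09 ± 0.26 (adjusted p = 0.00179, edgeR). It is little characterised, and its untreated lungs, at 4.08 to 6.76 CPM, matched the 2 h level. Hecw2, a ubiquitin ligase, fell by 0.93 ± 0.13 and Tbc1d8, a protein with a Rab GTPase-activating domain, by 0.94 ± 0.14 (both adjusted p = 0.00575, edgeR). Changes of Ccdc184, Hexim2, Fkbp14, Slc5a3, Gfra2, Ddx17, Picalm and Mme ran between -1.42 and -0.49, with adjusted p between 0.0189 and 0.046. Of these, Hexim2 inhibits the elongation factor P-TEFb, Fkbp14 folds collagens, Slc5a3 imports myo-inositol, Gfra2 is a receptor for neurturin, Ddx17 is an RNA helicase, Picalm builds clathrin coats and Mme is the peptidase neprilysin. Tbc1d8, Heatr1, Slc5a3 and Fkbp14 share stretches with a neighbour that may contribute reads. Picalm, Mme, Slc5a3 and Hexim2 lost their calls whichever library was left out, with adjusted p up to 0.133 to 0.208.

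**Figure D2:**
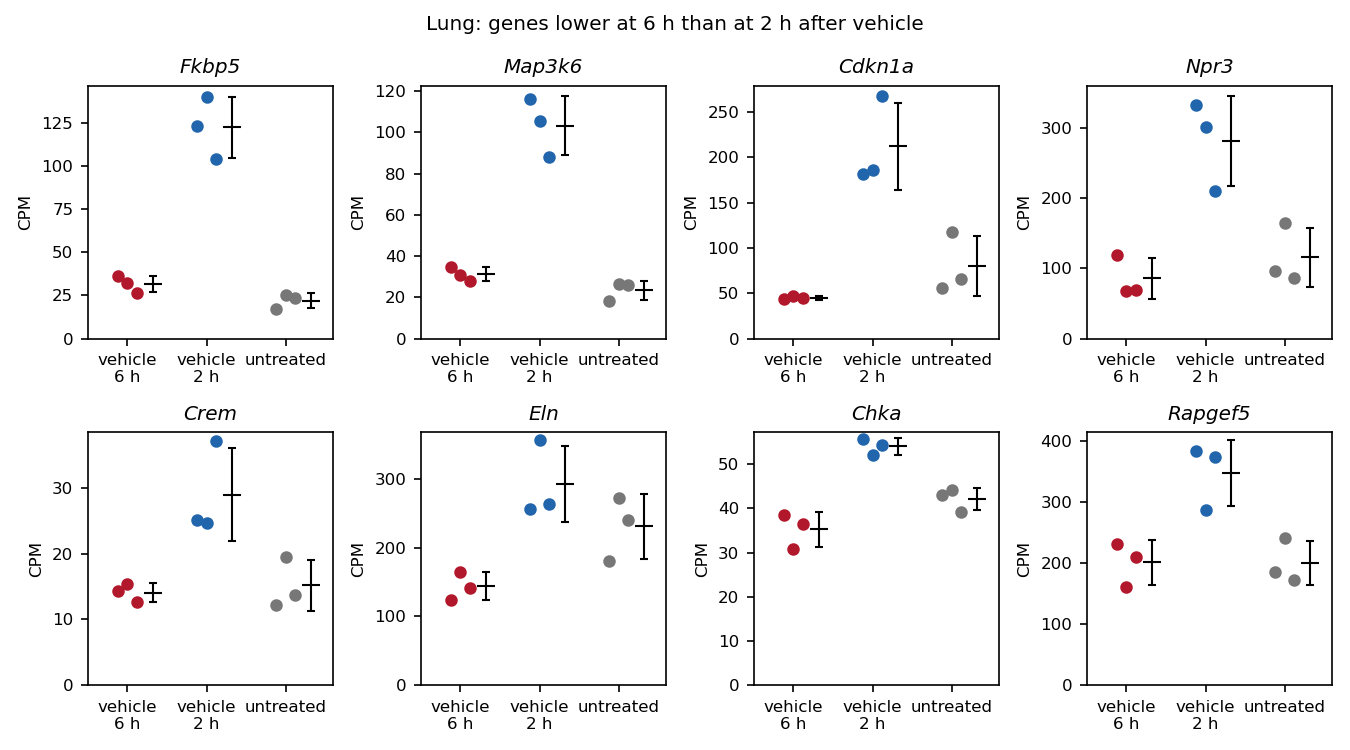
Levels of 8 genes that were lower at 6 h than at 2 h, as TMM-scaled CPM in single lung libraries of vehicle 6 h, vehicle 2 h and untreated mice, with the mean ± SD of 3. The 2 h libraries form the highest group for Fkbp5, Map3k6, Cdkn1a, Npr3, Crem, Chka and Rapgef5, while for Eln 1 untreated library reaches the 2 h range.

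Lrtm2, a leucine-rich repeat membrane protein (ENSMUSG00000055003, mm39 chromosome 6, 119292094 to 119307727), had 51.4, 49.3 and 44.0 CPM at 6 h and 16.1, 14.5 and 14.1 CPM at 2 h. The groups were tight and far apart, untreated lungs with 16.5 to 31.1 CPM lay between them, and Lrtm2 rose by 1.69 ± 0.18 (adjusted p = 0.000348, edgeR). Cacna2d4 overlaps it on the other strand, so that shared reads cannot be told apart. Cyp2a5, a cytochrome P450 of airway and liver, had 255, 454 and 296 CPM at 6 h, against 66.5, 92.2 and 61.6 CPM at 2 h and 45.4 to 159 CPM without treatment. Its groups did not overlap and it rose by 2.19 ± 0.41 (adjusted p = 0.036, edgeR), but it shares reads with the near-identical Cyp2a4 and its value is uncertain for that reason. In the same order, hepatocyte markers summed to 42.5, 3158.5 and 1877.5 CPM at 6 h and 85.3, 31.1 and 713.7 CPM at 2 h. Within 6 h the library with more of them also had more Cyp2a5, whereas within 2 h the order was reversed. Egf 6 h replicate 3, with 30316.5 CPM of these markers, had 265 CPM of Cyp2a5. Egf 6 h replicate 1, with 59.0 CPM of them, had 308 CPM. Whether liver RNA added to Cyp2a5 was not tested. Slc5a8, Dqx1, Gmnn and Cnn1, which are given below, ranked the vehicle 6 h libraries as the hepatocyte markers did. So did genes that fell, such as Eln and Pdlim5, and the share of all genes with this ranking was not counted. Cyp2a5 lost its call with covariates for markers of other organs (2.18 ± 0.45, adjusted p = 0.0687, edgeR) and without the 3 libraries above 500 CPM of hepatocyte markers (1.68 ± 0.62, adjusted p = 1).

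Among receptors, Ackr4, which removes chemokines from tissue, had 14.9, 11.3 and 12.7 CPM at 6 h and 6.11, 4.65 and 5.06 CPM at 2 h. It did not overlap and rose by 1.30 ± 0.20 (adjusted p = 0.00919, edgeR), though Acad11 overlaps it with more reads. Chrm3, the muscarinic receptor that contracts airway smooth muscle, had 5.39, 5.25 and 5.78 CPM at 6 h and 2.99, 2.38 and 1.61 CPM at 2 h and rose by 1.23 ± 0.24 (adjusted p = 0.036, edgeR). Gpr155, a cholesterol sensor of lysosomes, had 93.0, 107 and 125 CPM at 6 h, against 55.2, 55.8 and 58.7 CPM at 2 h and 41.9 to 71.5 CPM in untreated lungs. The 6 h lungs were the highest of the groups and the change was 0.94 ± 0.19 (adjusted p = 0.0377, edgeR). Paqr7, a membrane progestin receptor, rose by 0.42 ± 0.09 (adjusted p = 0.0441, edgeR).

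Slc5a8, a transporter of monocarboxylates, had 7.58, 14.8 and 8.33 CPM at 6 h and 3.26, 3.01 and 3.39 CPM at 2 h and rose by 1.67 ± 0.33 (adjusted p = 0.036, edgeR). Wnt3a, a secreted Wnt ligand and the one of 20 Wnt and Notch genes called by edgeR (1 higher by DESeq2, 3 by voom), had 32.4, 25.6 and 31.8 CPM at 6 h and 21.2, 16.8 and 15.7 CPM at 2 h, with a change of 0.74 ± 0.15 (adjusted p = 0.0438, edgeR). Pik3ip1, an inhibitor of PI3 kinase and the one of 19 FoxO and insulin genes called by edgeR (1 higher and 1 lower by DESeq2 and by voom), had 40.0, 28.0 and 36.7 CPM at 6 h and 20.9, 18.5 and 15.5 CPM at 2 h (0.93 ± 0.19, adjusted p = 0.0377, edgeR). Groups did not overlap for these 3 genes, and untreated lungs lay between or across them. Dqx1, a predicted helicase, Cys1, a protein of cilia, Mthfd1l, an enzyme of mitochondrial folate metabolism, and Gmnn, which blocks relicensing of replication origins, rose by 0.99 to 2.00 with adjusted p between 0.0222 and 0.0328. Cyp2a5, Dqx1, Slc5a8, Chrm3, Gpr155 and Paqr7 lost their calls without any one of the 6 libraries, with adjusted p up to 0.137 to 0.181. Pik3ip1, Wnt3a, Cys1, Mthfd1l and Gmnn kept theirs in 1 of the 6 cases, with adjusted p otherwise up to 0.117 to 0.219 by edgeR. With covariates for markers of other organs, Cyp2a5, Dqx1, Slc5a8, Chrm3, Gpr155, Paqr7, Gmnn and Wnt3a lost their calls.

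Several lists of stress and growth responses, apart from those with calls given above, gave no call by edgeR in lung. By edgeR 0 of 27 immediate early genes, 0 of 21 MAPK and Egfr feedback genes, 0 of 21 chemokine and NF-kB targets and 0 of 16 thrombosis genes passed. At an unadjusted p under 0.05 their counts were 8, 5, 5 and 7, beside 9.57% of all genes tested. Nr4a3, an orphan nuclear receptor switched on within minutes of a stimulus, had 4.32, 5.95 and 5.32 CPM at 6 h, against 18.4, 14.1 and 28.5 CPM at 2 h and 3.65, 13.7 and 3.71 CPM untreated. The times did not overlap, but the change of -1.97 ± 0.43 did not pass (adjusted p = 0.0623). Thbs1, a secreted protein of platelets and wounds, had a change of -1.25 ± 0.27 (adjusted p = 0.059). DESeq2 called 3 immediate early genes, 1 feedback gene, 2 chemokine and NF-kB targets and 1 thrombosis gene, all lower at 6 h, and voom called 3, 1, 5 and 2 lower and 0, 1, 2 and 1 higher.

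The counts at an unadjusted p under 0.05 that follow stand beside the same 9.57% of all genes. Further lists without a call by edgeR were the Egf family (0 of 13, with 2 at an unadjusted p under 0.05), the interferon response (0 of 25, with 1), Jak-Stat3 and acute phase (0 of 21, with 6), the unfolded protein response (0 of 22, with 3) and cytosolic heat shock (0 of 17, with 7). The inducible chaperone Hspa1a had 5.44 ± 0.94 CPM at 6 h and 14.1 ± 5.31 CPM at 2 h (SD, n = 3 each), a change of -1.37 ± 0.42 (adjusted p = 0.217). Hypoxia (0 of 19, with 5), Nrf2 antioxidant genes (0 of 16, with 2), cholesterol synthesis (0 of 24, with 2), fatty acid synthesis (0 of 20, with 3) and fasting and PPAR targets (0 of 23, with 3) also gave none. Genes of S phase had 0 of 19 called and 8 at an unadjusted p under 0.05, and 16 of the 19 estimates were positive. Mcm5, a subunit of the replicative helicase, had 21.4 ± 0.59 CPM at 6 h and 15.5 ± 0.99 CPM at 2 h (SD, n = 3 each; 0.46 ± 0.14, adjusted p = 0.192). Metallothionein and zinc genes (0 of 8, with 1), endothelial activation (0 of 19, with 4), lymphocyte trafficking (0 of 16, with 1), histone genes (0 of 9, with 2) and Tgf-beta and Bmp genes (0 of 23, with 3) had none either. For genes of G2 and mitosis the counts were 0 of 19 and 0, and 13 estimates were negative. DESeq2 called 0 Egf family, 0 interferon and 0 mitosis genes, 2 Jak-Stat3, 3 heat shock and 1 unfolded protein gene as lower, and 1 S phase gene as higher. It called 1 gene as lower in each of the hypoxia, Nrf2, metallothionein, cholesterol, fatty acid, fasting and lymphocyte lists, 0 endothelial and histone genes, and 1 higher and 1 lower Tgf-beta gene. By voom, heat shock had 9 lower genes and S phase 4 higher, and 0 Egf family, interferon, unfolded protein and mitosis genes were called. Voom called 4 Jak-Stat3, 4 Nrf2 and 4 fatty acid genes lower, and 1 in each of the metallothionein, cholesterol, fasting and lymphocyte lists. It called 1 higher and 3 lower hypoxia genes, 4 higher and 2 lower endothelial genes, 1 and 1 histone genes and 2 and 2 Tgf-beta genes.

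Untreated lungs were not uniformly on the side of either time. Among the 32 genes that rose, the untreated mean was nearer the 2 h mean for 22 and nearer the 6 h mean for 10. Among the 42 that fell, it was nearer the 6 h mean for 25 and nearer the 2 h mean for 17. Fkbp5, Map3k6, Crem, Limk1, Pdlim5 and Rapgef5 were among those whose untreated lungs resembled 6 h, and Arntl, Clock, Fam124b and Ccdc184 among those whose untreated mean was nearer 2 h. Untreated mice had neither injection nor anaesthesia that the labels mention, and their hour of death is not given either.

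The same interval could be read in 8 other lung libraries, 4 taken 6 h and 4 taken 2 h after Egf. Egf 6 h over Egf 2 h gave 1446 of 16778 genes (8.62%), 708 higher (4.22%) and 738 lower (4.4%), by the same edgeR test. Leaving out replicate 1 of the Egf 2 h lungs lowered this to 952 genes, and leaving out their replicate 2 to 884. Of the 74 vehicle calls 72 had the same sign there, and 62 were called with the same sign, 24 of the 32 rises and 38 of the 42 falls. These 62 are 83.8% of the vehicle calls and 4.29% of the Egf calls. The change itself differed between Egf and vehicle at an adjusted p under 0.05 for 0 of the 74, and for 7 of all genes tested (0.0417%), 2 higher (0.0119%) and 5 lower (0.0298%) with Egf, by edgeR. Of the 74, 16 had an unadjusted p under 0.05 for that difference by edgeR, and 1 passed by DESeq2.

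Arntl, Fkbp5 and Lrtm2 passed in the Egf mice too. Arntl had 2.59, 2.71, 2.06 and 3.82 CPM at Egf 6 h and 15.9, 10.3, 11.2 and 17.3 CPM at Egf 2 h, and its change was -2.28 ± 0.31 (adjusted p = 0.00033, edgeR). Fkbp5 had 45.8, 27.1, 40.7 and 31.2 CPM at Egf 6 h and 129, 163, 166 and 131 CPM at Egf 2 h, a change of -2.02 ± 0.18 (adjusted p = 8.74e-06, edgeR). Lrtm2 had 56.1, 50.2, 47.3 and 46.8 CPM at Egf 6 h and 15.3, 14.3, 13.8 and 15.3 CPM at Egf 2 h, a change of 1.77 ± 0.15 (adjusted p = 8.74e-06, edgeR). For all 3 genes the 2 times did not overlap in either treatment. Dbp, Per3 and Zbtb16, which missed the threshold with vehicle, passed with Egf, at 2.34 (adjusted p = 0.0018), 1.55 (0.0139) and -1.94 (0.0106).

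Cnn1 and Cry1 were among the vehicle calls that did not pass in the Egf mice. Cnn1, the smooth muscle calponin, had 84.3, 118 and 104 CPM at vehicle 6 h and 59.3, 50.1 and 55.1 CPM at vehicle 2 h, and rose by 0.90 ± 0.16 (adjusted p = 0.0222, edgeR). With Egf it had 82.0, 76.6, 76.2 and 63.4 CPM at 6 h and 70.8, 53.2, 72.0 and 80.9 CPM at 2 h, which overlap, and its change was 0.11 ± 0.14 (adjusted p = 0.689). Cry1 had 25.3, 32.8, 29.0 and 24.5 CPM at Egf 6 h and 22.7, 22.2, 15.8 and 21.3 CPM at Egf 2 h. Its Egf lungs did not overlap either, but its change of 0.44 ± 0.14 did not pass (adjusted p = 0.0581). The difference of the Cry1 changes was -0.56 ± 0.21 (adjusted p = 0.69), and that of the Cnn1 changes was -0.79 ± 0.21 (adjusted p = 0.34). Dqx1 at -0.28 ± 0.32 and Slc5a8 at -0.09 ± 0.29 were the 2 with the opposite sign in the Egf mice.

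**Figure D3:**
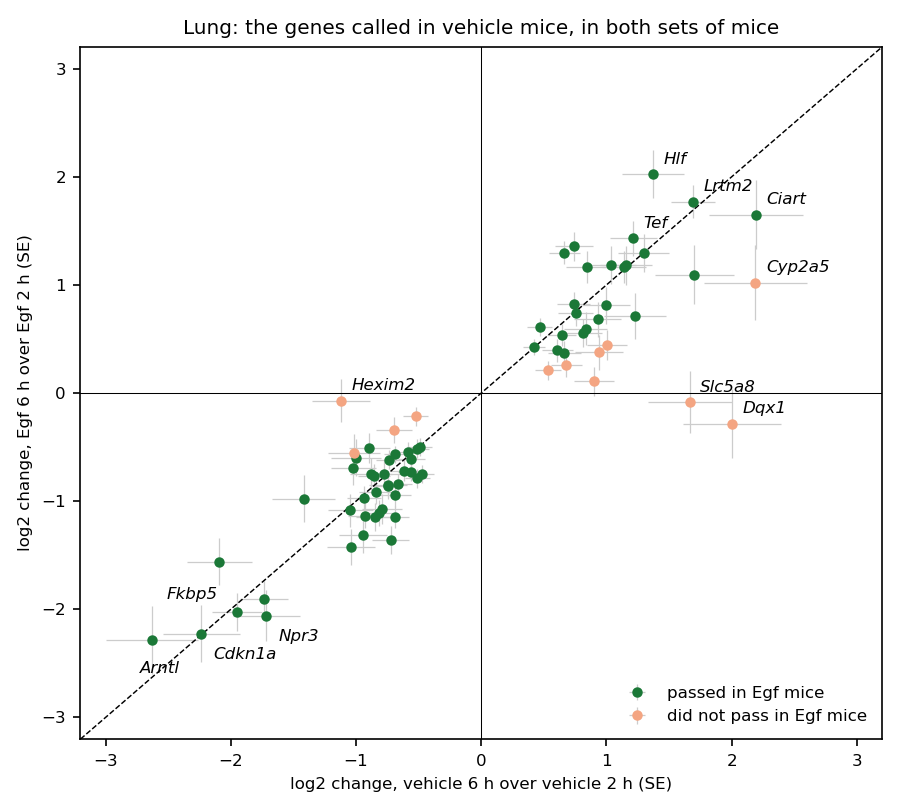
Log2 change of 6 h over 2 h in Egf-injected lungs (vertical axis) against the same change in vehicle-injected lungs (horizontal axis), with 1 point for each of the 74 genes called with vehicle and lines for the SE. Points lie in the lower left and upper right except for Dqx1 and Slc5a8, and 62 of them were also called in the Egf mice.

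Whether the lung differed from heart, kidney and liver was tested in a fit over all 68 libraries, as the lung change minus the mean change of the other 3 organs. Of 18736 genes 9 differed (0.048%), 3 higher (0.016%) and 6 lower (0.032%) in lung. With the 24 vehicle libraries alone none passed (0, with 860 at an unadjusted p under 0.05, edgeR), and leaving out single vehicle lungs gave 2 to 7. In that fit over 68 libraries, 50 genes were called in lung (0.267%), 22 higher (0.117%) and 28 lower (0.149%). Heart had 21 (0.112%), 6 higher (0.032%) and 15 lower (0.0801%), kidney 16 (0.0854%), 7 higher (0.0374%) and 9 lower (0.048%), and liver 813 (4.34%), 581 higher (3.1%) and 232 lower (1.24%). Of the 74 lung calls, 4 were called with the same sign in heart, 3 in kidney and 19 in liver. The labels do not say whether the organs come from the same mice, so these counts cannot be taken as separate experiments.

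Pdlim5, Limk1, Gpr155 and Fkbp5 were called in lung and also differed from the other organs. Pdlim5 changed by -0.68 ± 0.11 in lung in this fit, against 0.24 ± 0.11 in heart, -0.06 ± 0.11 in kidney and 0.09 ± 0.11 in liver, a difference of -0.77 ± 0.12 (adjusted p = 0.00136, edgeR). Limk1 changed by -0.73 ± 0.15 in lung and by 0.07, 0.30 and 0.00 in heart, kidney and liver, a difference of -0.85 ± 0.18 (adjusted p = 0.0402, edgeR). Gpr155 rose in lung by 0.95 ± 0.17, with changes of -0.12, 0.15 and 0.09 elsewhere and a difference of 0.91 ± 0.19 (adjusted p = 0.0402, edgeR). In these 3 genes no other organ was called. Fkbp5 changed by -1.94 ± 0.27 in lung, -1.10 ± 0.27 in heart, -0.20 ± 0.26 in kidney and 0.53 ± 0.27 in liver, a difference of -1.68 ± 0.31 (adjusted p = 0.00937, edgeR).

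Of the clock genes Arntl, Ciart, Tef and Cry1, each passed in lung and in 1 or 2 other organs in this edgeR fit. Arntl fell in kidney by 2.51 (adjusted p = 0.0303) and in liver by 2.93 (0.000298), with -2.07 in heart (0.0548). Ciart rose in liver by 3.73 (adjusted p = 1.73e-05), with 1.75 in heart (0.178) and 1.77 in kidney (0.352). Tef rose in heart by 0.99 (adjusted p = 0.0181) and in liver by 1.81 (1.69e-08), with 0.81 in kidney (0.141). Cry1 rose in kidney by 1.57 (adjusted p = 0.000713), with -0.06 in heart (0.996) and 0.64 in liver (0.122). None of these 4 differed between lung and the mean of the others at an adjusted p under 0.05. The other 5 genes that differed were not called in the lung: Rnf144a at -1.44, Itpripl1 at 0.97, Pnkd at -0.97, Ctps at 1.16 and Gpr146 at 1.02 had called changes in liver, in the direction opposite to their lung estimate.

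**Figure D4:**
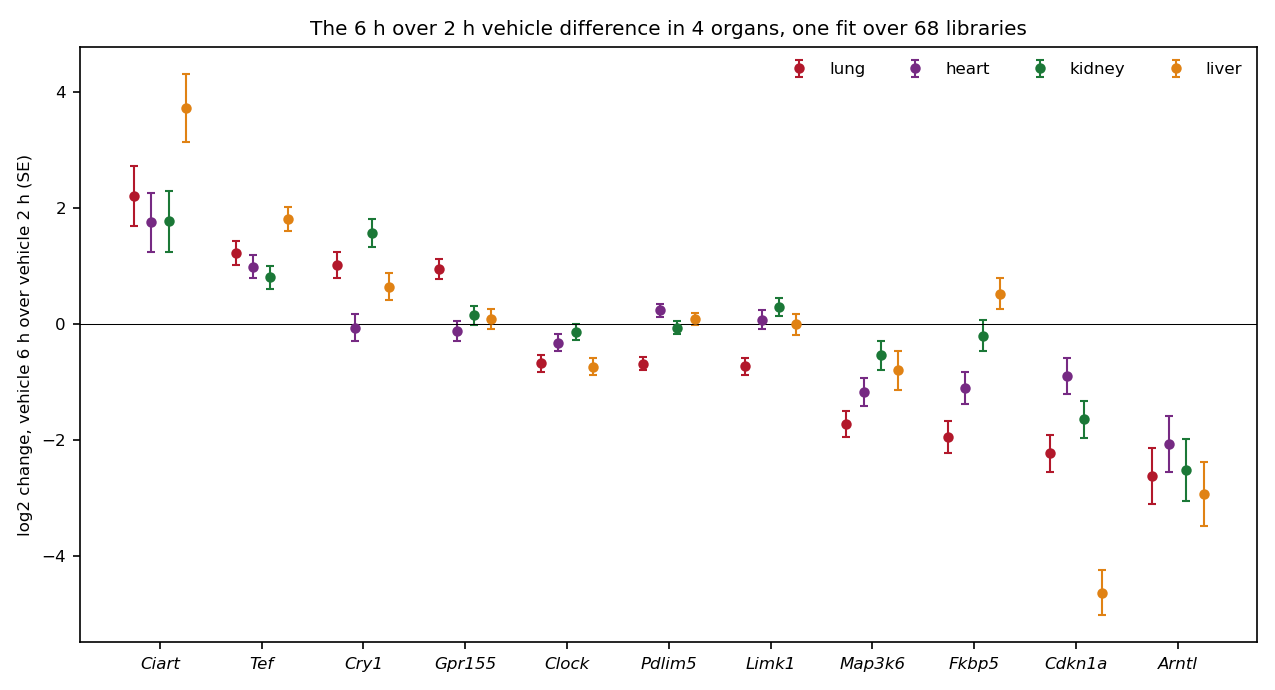
Log2 change of vehicle 6 h over vehicle 2 h for 11 genes in lung, heart, kidney and liver, from the fit over 68 libraries, with the SE as lines. Pdlim5, Limk1 and Gpr155 lie near 0 outside the lung, while Arntl lies below -2 in every organ and Ciart above 1.

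Cell markers were compared between the times as well. Of 29 marker lists, 2 had summed levels that did not overlap between 6 h and 2 h, both at p = 0.1, which is the smallest that an exact two-sided permutation test of 3 against 3 can give. Single genes did not overlap for 14.3% of all tested, so 2 of 29 lists is no excess. Smooth muscle and pericyte markers summed to 959, 980 and 1094 CPM at 6 h and 950, 779 and 713 CPM at 2 h, with Cnn1 the 1 of 8 genes to pass. Thyroid markers summed to 10.1, 10.3 and 10.8 CPM at 6 h and 13.1, 26.6 and 11.2 CPM at 2 h. Their part in the results was not tested. Apart from Cnn1, no gene of any of the 29 lists was called by edgeR. DESeq2 called 1 alveolar type II and 1 dendritic cell gene lower and 1 club cell gene higher, and voom called 3 alveolar type II and 2 thyroid genes lower, 2 club cell genes higher and at most 1 gene in either direction in any other list.

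Some lungs carried RNA of liver. The 12 hepatocyte markers summed to 42.5, 3158.5 and 1877.5 CPM at 6 h, against 85.3, 31.1 and 713.7 CPM at 2 h and 25.1 to 101 CPM in untreated lungs. All 12 had a positive estimate, with a median of 2.33, and 0 passed by edgeR, DESeq2 or voom, with 0 at an unadjusted p under 0.05 by edgeR. The fit without the 3 vehicle lungs above 500 CPM, chosen after seeing the data, had 1 library at 6 h and 2 at 2 h. The lone 6 h lung is then assumed to vary as the other groups do. In that fit Arntl had a change of -2.87, Fkbp5 of -1.87, Cdkn1a of -2.09, Map3k6 of -1.68, Ciart of 2.18 and Lrtm2 of 1.75. These picked genes lay close to their values with all libraries, whereas Cyp2a5 moved from 2.19 to 1.68. With the marker sums of other organs as covariates, 52 genes passed and 41 of them were among the 74.

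Blood and airway also varied between lungs. Erythroid markers summed to 7087, 17627 and 4991 CPM at 6 h and 4579, 13597 and 19600 CPM at 2 h, overlapping widely. With their sum as a covariate, an alternative chosen after seeing the data, 117 genes passed, the 74 among them. Club cell markers summed to 30198.9, 20172.1 and 40124 CPM at 6 h and 22935.7, 15159 and 15735.6 CPM at 2 h. Skeletal muscle markers summed to 10.1, 14.2 and 9.01 CPM at 6 h and 154, 12.2 and 6.91 CPM at 2 h, the first 2 h library standing apart.

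**Figure D5:**
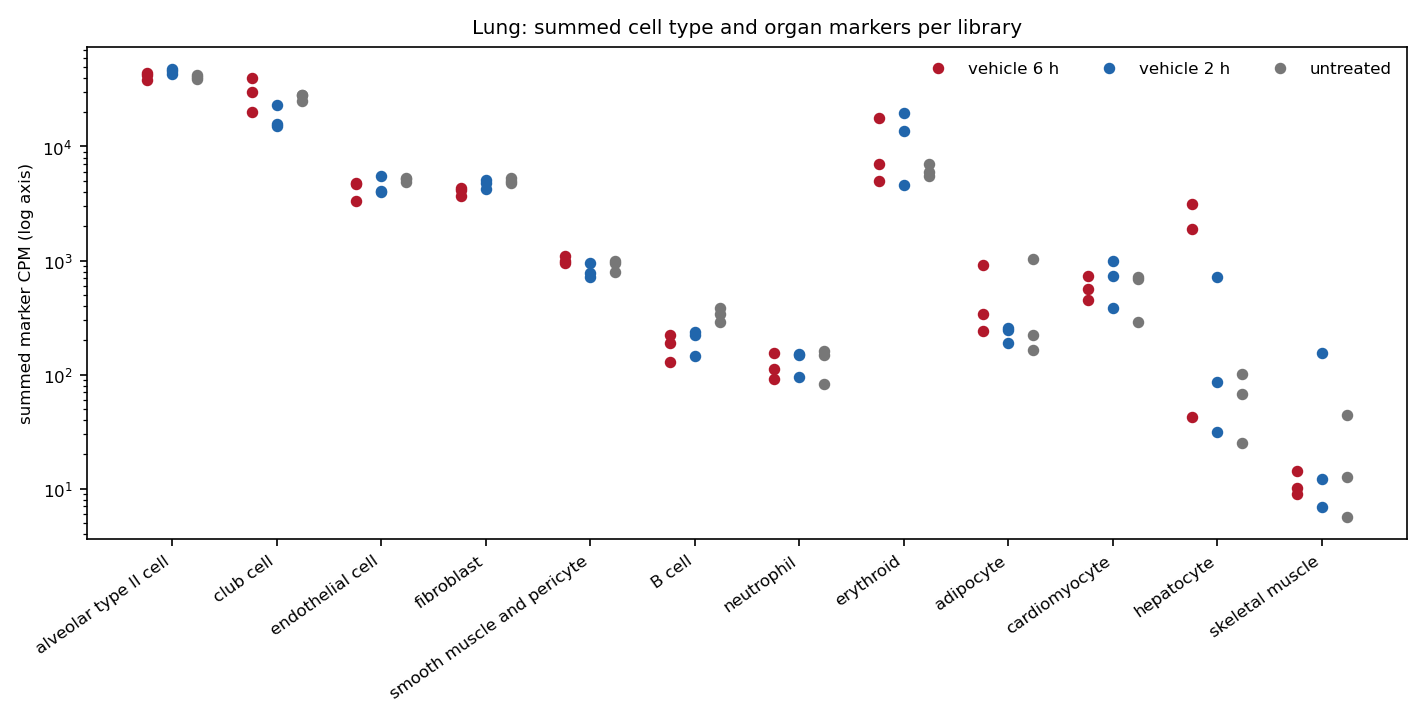
Summed level of 12 marker lists in single lung libraries, in CPM of library totals on a log axis, for vehicle 6 h, vehicle 2 h and untreated mice. Alveolar type II markers are nearly level across libraries, whereas hepatocyte markers spread from 25.1 to 3158.5 CPM.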

How the data were processed

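Whole lungs, and the other organs, were flash-frozen and sequenced as polyadenylated RNA without strand information, per the labels' protocols. The authors deposited raw read counts per gene. HISAT2 2.0.5, featureCounts 1.5.0-p3 and build mm39 are named in the submitters' processing notes. From these counts, edgeR 4.0.16 (R 4.3.3) was run on all 17 lung libraries with TMM scaling, its filter on low counts and robust quasi-likelihood tests, and p-values were adjusted by Benjamini-Hochberg at 0.05. Lung libraries held 16436692 to 21430960 counts and no pair was alike within counting noise. The fit was tested on simulated data for the vehicle comparison over 16576 genes: 13.4% of genes changed 1.5-fold, 49.3% changed 2-fold and 89.4% changed 4-fold were called. These were 67, 67 and 66 genes of at least 1 CPM, and 2 unchanged genes were called. Each gene was drawn independently. Joint shifts such as RNA of another organ were thus absent, and the shares need not hold for the real libraries.

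Named genes were the 15 largest rises and falls among called genes with an informative symbol, at least 1 CPM in a group and no overlap, the 5 rises and 5 falls of highest level, up to 4 called members of each list, and the 8 of smallest p differing from other organs. Wee1, Gpr146, and uncalled genes were added after their values were seen. The gene lists and members were chosen with earlier results of these data known. Promoters came from RefSeq on GRCm38.p6, matched by symbol, since no mm39 sequence was used. Alternatives were RLE size factors, no filter, DESeq2 1.42.0, voom in limma 3.58.1, subsets of libraries, a replicate block, marker covariates and leaving out single libraries. Marker sums are CPM of library totals.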

Additional observations from a re-analysis of the deposited data

Results flagged for a closer look

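The change between 6 h and 2 h after vehicle differed between lung and the mean of heart, kidney and liver for 9 genes, by the edgeR test of that difference at an adjusted p under 0.05 over 68 libraries. The difference on the log2 scale was -1.68 for Fkbp5, -0.85 for Limk1, -0.80 for Itpripl1, -0.77 for Pdlim5, -0.75 for Ctps and -0.72 for Gpr146, and 1.16 for Rnf144a, 0.91 for Gpr155 and 0.66 for Pnkd. With the 24 vehicle libraries alone 0 passed and 860 had an unadjusted p under 0.05.

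Marker sums of the Egf-injected lungs, which serve here as a second set of mice, held single libraries far from the other 3 of their group. Of 16 sums tested, 6 had a gap above Dixon's critical value for 4 samples, which chance gives in about 1 in 20 for normally distributed values. Marker sums of other organs are strongly skewed, so that rate need not hold here. Egf 6 h replicate 3 had 30316.5 CPM of hepatocyte markers. Egf 6 h replicate 4 had 3314.9 CPM of skeletal muscle markers, 17547.1 CPM of stratified epithelium markers and 37.5 CPM of kidney tubule markers. Egf 6 h replicate 1 had 18.2 CPM of thyroid markers, and Egf 2 h replicate 3 had 28.6 CPM of kidney tubule markers. Vehicle groups of 3 are too small for this check.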

How the results depend on the processing

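None of the 44 called genes named by rule changed direction in any alternative. The median change of all genes, 0.01, ran from -0.02 to 0.02, below 0 with voom, with organ covariates, without vehicle 6 h replicate 2 and without the hepatocyte-rich libraries. The vehicle count of 74 (32 higher, 42 lower) was 66 with RLE size factors, 57 without the filter and 52 with covariates for markers of other organs. It was 298 with DESeq2, which shared 73 of the 74 calls, and 1409 with limma voom and quality weights (778 higher, 631 lower), which shared all 74. Fitting the 6 vehicle libraries alone gave 10 and the 9 vehicle and untreated libraries 6. Leaving out single vehicle libraries gave 17 to 45. Correlations of deviations between 6 h and 2 h libraries of the same replicate number were 0.283, -0.344 and 0.0935. Between different numbers they ran from -0.615 to 0.6, so they cannot show whether the numbers pair libraries. A replicate block gave 28, of which 27 were among the 74, and moved Ciart to an adjusted p of 0.0522 and Hlf to 0.0591 by edgeR. Added after seeing the data, leaving out 3 libraries above 500 CPM of hepatocyte markers gave 0 (742 at an unadjusted p under 0.05), a covariate for erythroid markers gave 117, and the 62 vehicle calls shared with Egf were 56 with RLE and 234 with DESeq2. The Egf count of 1446 was 1429 with RLE and 2122 with DESeq2, and 884 to 1449 without single Egf libraries, with 952 without Egf 2 h replicate 1 and 884 without replicate 2. The 7 genes whose change differed between Egf and vehicle were 49 with DESeq2 and 7 with the replicate block. The 9 genes that set lung apart from other organs were 11 with RLE, 20 with a block for group and replicate number, 0 with the 24 vehicle libraries (860 at an unadjusted p under 0.05), and 2 to 7 without single lung libraries. The cause of these shifts was not tested. Of the 44 named genes called, 41 passed with RLE, 37 without the filter, 43 with DESeq2 (not Dqx1), 44 with voom, 8 with 6 libraries, 5 with 9, 23 with the block and 31 with organ covariates. Those that did not pass with organ covariates were Cyp2a5, Dqx1, Slc5a8, Chrm3, Gmnn, Gpr155, Wnt3a, Paqr7, Mme, Rapgef5, Gfra2, Slc5a3 and Hexim2. The 3 libraries a group and the spread between libraries limit small changes.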
